A study of Homo sapiens with 16 samples.

Results

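Gene expression was compared between 2 pairs of mantle cell lymphoma lines, Z-138 with Maver-1 and REC-1 with SP49, over 8 of the 16 arrays of the series. For each line the log2 values of its DMSO array and its AFN700 array were averaged, so that the comparison set 2 line means against 2. A gene was taken to separate the pairs when all 4 arrays of one pair lay above all 4 arrays of the other and the higher pair had a mean intensity above 100. Of 12305 genes tested, 989 separated the pairs with higher values in Z-138 and Maver-1 and 979 with higher values in REC-1 and SP49, which is 8.04% and 7.96% of the genes tested. The array carried probe sets for 19775 genes in all.

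Mantle cell lymphoma is a cancer of mature B cells. The study measured the response of 8 established B-cell lines to AFN700, which its title describes as IKKB inhibition. IKKB is the kinase that starts the classical arm of NF-kB signalling, in which the I-kappa-B proteins are removed and dimers containing RELA or REL enter the nucleus. In B cells this arm is fed by the B-cell receptor through SYK, BTK, PRKCB and the complex of BCL10 and MALT1, and by toll-like receptors through MYD88. The alternative arm is fed by receptors such as CD40, BAFF receptor and the lymphotoxin receptor. It runs through the kinase MAP3K14, which TRAF3 and BIRC2 hold at a low level, to the processing of NFKB2 and the entry of RELB.

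Every culture received either 5 uM AFN700 or 0.025% DMSO for 20 hours. All 4 lines grew in RPMI with fetal bovine serum, and RNA was taken from whole cultures. REC-1 and SP49 are labelled sensitive, and Z-138 and Maver-1 insensitive, to ibrutinib, an inhibitor of BTK, and to a second agent abbreviated stn. The labels do not assign a line to the alternative or the classical arm; that assignment was taken as the reason for the pairing and was not tested. Each line is a single culture per treatment on a single array, so line, drug sensitivity and any other property that differs between the pairs cannot be told apart. The p-values measure only the spread between these lines. In whole cultures, fewer cells of a kind and less RNA per cell cannot be told apart.

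The 8 arrays had a median intensity of 229.0 to 255.9 over the genes tested. Across those genes the DMSO and AFN700 arrays of a line correlated with r = 0.984 to 0.988. The DMSO arrays of Z-138 and Maver-1 correlated with r = 0.892 and those of REC-1 and SP49 with r = 0.857, against 0.827 to 0.855 between lines of different pairs; these are descriptions across genes, which are not independent replicates. The ratio of the 3' to the 5' actin probe sets, a sign of RNA quality, was 10.3 and 18.8 on the Maver-1 arrays and 2.73 to 6.40 on the other 6, and its part in the results was not tested. All 11 B-cell markers with a probe set of their own exceeded 100 on at least 1 array. This was so for 7 of 18 T-cell, 1 of 9 natural killer cell, 2 of 13 myeloid, 3 of 12 stromal and 2 of 10 epithelial markers.

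At an adjusted p under 0.05, limma called 0 of the 12305 genes. The lowest adjusted p was 0.285, and 1031 genes (8.38%) had an unadjusted p under 0.05 where 615 would be expected by chance. Of these, 455 (3.70%) were higher in Z-138 and Maver-1 and 576 (4.68%) in REC-1 and SP49. With 2 lines against 2 an exact permutation test of a single gene cannot go below p = 0.333, so the separated genes are described by their values and counts. A fit of the 8 arrays with the line as a random block called 156 genes, and a fit of all 8 lines called 1. Differences were larger among the genes high in REC-1 and SP49, with a median size of 1.22 on the log2 scale against 0.87 among the genes high in Z-138 and Maver-1. A difference of 4 or more on that scale was reached by 108 and 43 genes. The threshold of 100 lay between TRIM16 (mean 100.1 in Z-138 and Maver-1) and SLC43A1 (98.8), and between SLC25A27 (100.1 in REC-1 and SP49) and LY6E (99.4). In every sequence of paired values that follows, the DMSO array comes first and the AFN700 array second, and differences are Z-138 and Maver-1 minus REC-1 and SP49 on the log2(intensity + 3.3) scale, with their SE. Levels are probe set intensities and are compared between lines only, never between genes.

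**Figure D1:**
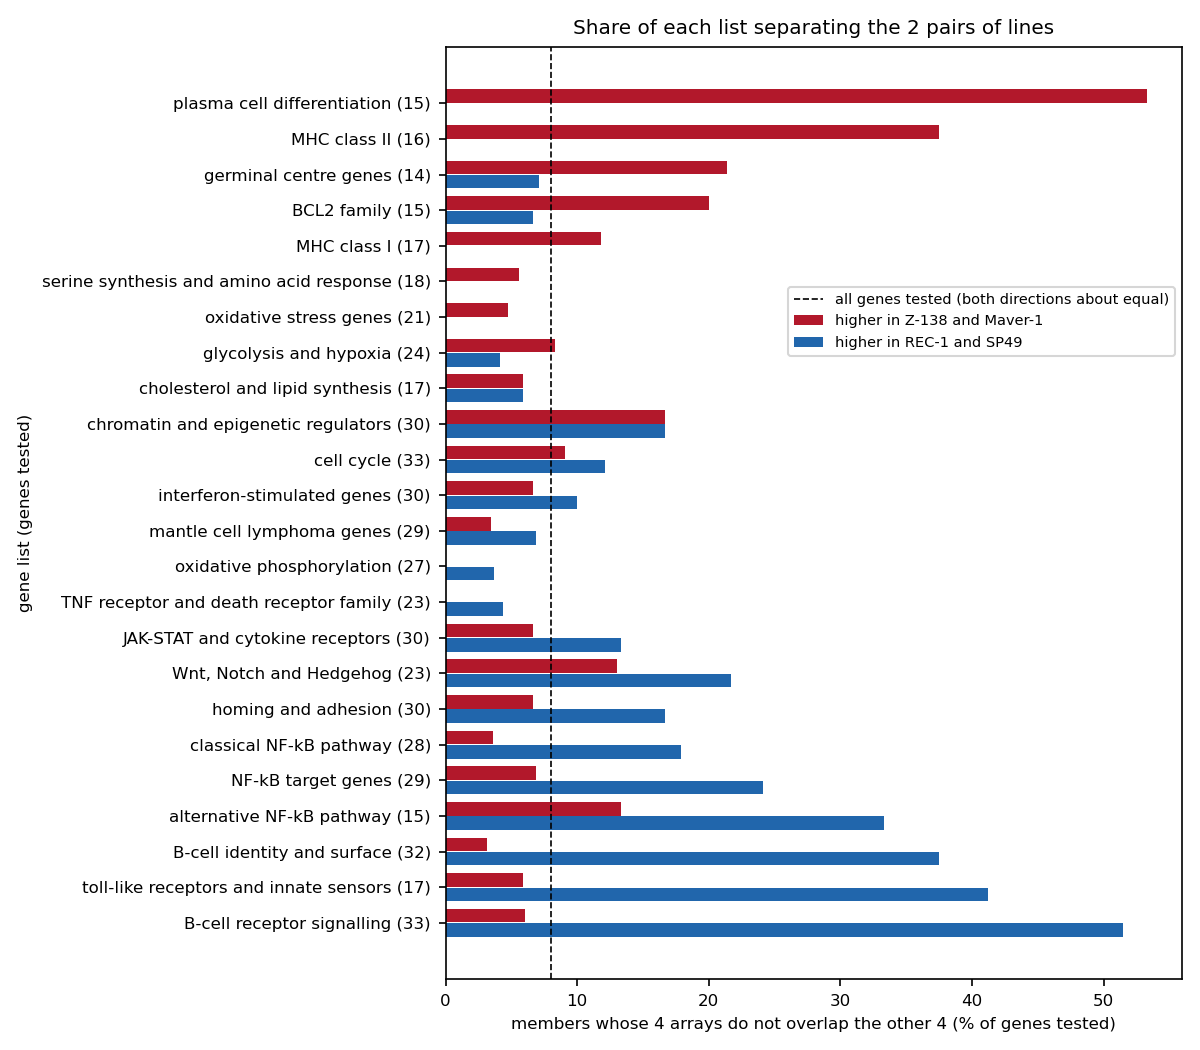
The bars give, for each gene list except the cell type markers, the percent of its tested members whose 4 arrays of one pair all lie above the 4 arrays of the other, with a mean above 100 on the higher side. Red bars are higher in Z-138 and Maver-1, blue bars higher in REC-1 and SP49, numbers in brackets are genes tested, and the dashed line marks the 8.04% of all genes. Plasma cell differentiation (53.3%) and MHC class II (37.5%) lead the red bars, and B-cell receptor signalling (51.5%), toll-like receptors and innate sensors (41.2%) and B-cell identity (37.5%) lead the blue bars. The B-cell markers, which are not drawn, had 5 of 11 higher in REC-1 and SP49 (45.5%) and 1 higher in Z-138 and Maver-1 (9.09%).

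Genes of B-cell receptor signalling were higher in REC-1 and SP49. Of 33 members tested, 17 separated the pairs in that direction (51.5%, against 7.96% of all genes) and 2 in the other, and the median difference of the list was -1.0 against -0.003 over all genes. None passed the test (adjusted p at least 0.285 in limma). CR2, the complement receptor that lowers the threshold of the B-cell receptor, had intensities of 1 and 3.1 (Z-138), 0.7 and 1.1 (Maver-1), 868 and 356 (REC-1) and 176 and 123 (SP49). The 4 arrays of Z-138 and Maver-1 were near 0, those of REC-1 and SP49 were all above 100, and the difference was -5.95 ± 0.82. NFATC1, a calcium-regulated transcription factor downstream of the receptor, read 87.1 and 107 (Z-138), 12.3 and 11 (Maver-1), 1244 and 1414 (REC-1) and 438 and 561 (SP49), a difference of -4.40 ± 1.10. FYN, a kinase of the SRC family, read 74.2 and 69.3 (Z-138), 10.8 and 8.8 (Maver-1), 1434 and 1170 (REC-1) and 292 and 309 (SP49), and differed by -4.33 ± 1.18. In these probe sets Maver-1 was the lowest line and REC-1 the highest, and the pairs did not overlap. A second bright NFATC1 probe set did overlap, with 217.1 and 237.7 in Z-138 above 95.7 and 86.6 in SP49.

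The receptor's own signalling chains were lower in Z-138 and Maver-1 on every array. CD79A read 798 and 662 (Z-138), 662 and 657 (Maver-1), 1499 and 2321 (REC-1) and 1685 and 1834 (SP49) and differed by -1.38 ± 0.19. CD79B read 934 and 828 (Z-138), 812 and 760.4 (Maver-1), 1444 and 2034 (REC-1) and 1656 and 1886 (SP49), a difference of -1.06 ± 0.18; it falls outside the naming rule and was chosen after its values were seen, as were LYN, SYK, BTK, SPI1, SPIB and POU2F2. LYN, the kinase that first phosphorylates these chains, differed by -1.15 ± 0.29, with Z-138 at 1062 and 1053 and SP49 at 3274 and 3333. CD22, an inhibitory co-receptor, read 46.1 and 43.8 (Z-138), 252 and 149 (Maver-1), 574 and 419 (REC-1) and 842 and 955 (SP49), a difference of -2.77 ± 0.81. PTPN6, the phosphatase that CD22 recruits, read 488 and 344 (Z-138), 419 and 242 (Maver-1), 1492 and 1904 (REC-1) and 1950 and 2079 (SP49), and INPP5D, the lipid phosphatase that opposes PI3-kinase, read 183 and 223 (Z-138), 401 and 395 (Maver-1), 925 and 841 (REC-1) and 922 and 889.9 (SP49). Their differences were -2.34 ± 0.26 and -1.64 ± 0.41, and both genes separated the pairs. BANK1, a scaffold protein of B-cell receptor signalling, read 75.2 and 85.3 (Z-138), 208 and 143 (Maver-1), 678 and 457 (REC-1) and 1581 and 1789 (SP49), a difference of -3.01 ± 0.71.

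SYK and BTK did not separate the pairs. SYK read 844 and 852 (Z-138), 1168 and 1088 (Maver-1), 1163 and 1169 (REC-1) and 1654 and 1378 (SP49), a difference of -0.44 ± 0.26, and BTK, the target of ibrutinib, read 903 and 899.8 (Z-138), 1248 and 1231 (Maver-1), 1182 and 1143 (REC-1) and 1524 and 1482 (SP49), a difference of -0.32 ± 0.26. In both, a Maver-1 array lay above a REC-1 array. The opposite direction held for RASGRP3, an activator of RAS in B cells, with 851 and 661 (Z-138), 255 and 229.6 (Maver-1), 9.4 and 15.4 (REC-1) and 82.1 and 64.9 (SP49) and a difference of 3.65 ± 1.04, and for CD81, a tetraspanin of the B-cell co-receptor, which differed by 0.92 ± 0.21. The list's count was 17 to 24 when one line was left out, when 14.6% to 17.6% of all genes separated in that direction, and 14 of 32 with the median over a gene's probe sets.

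**Figure D2:**
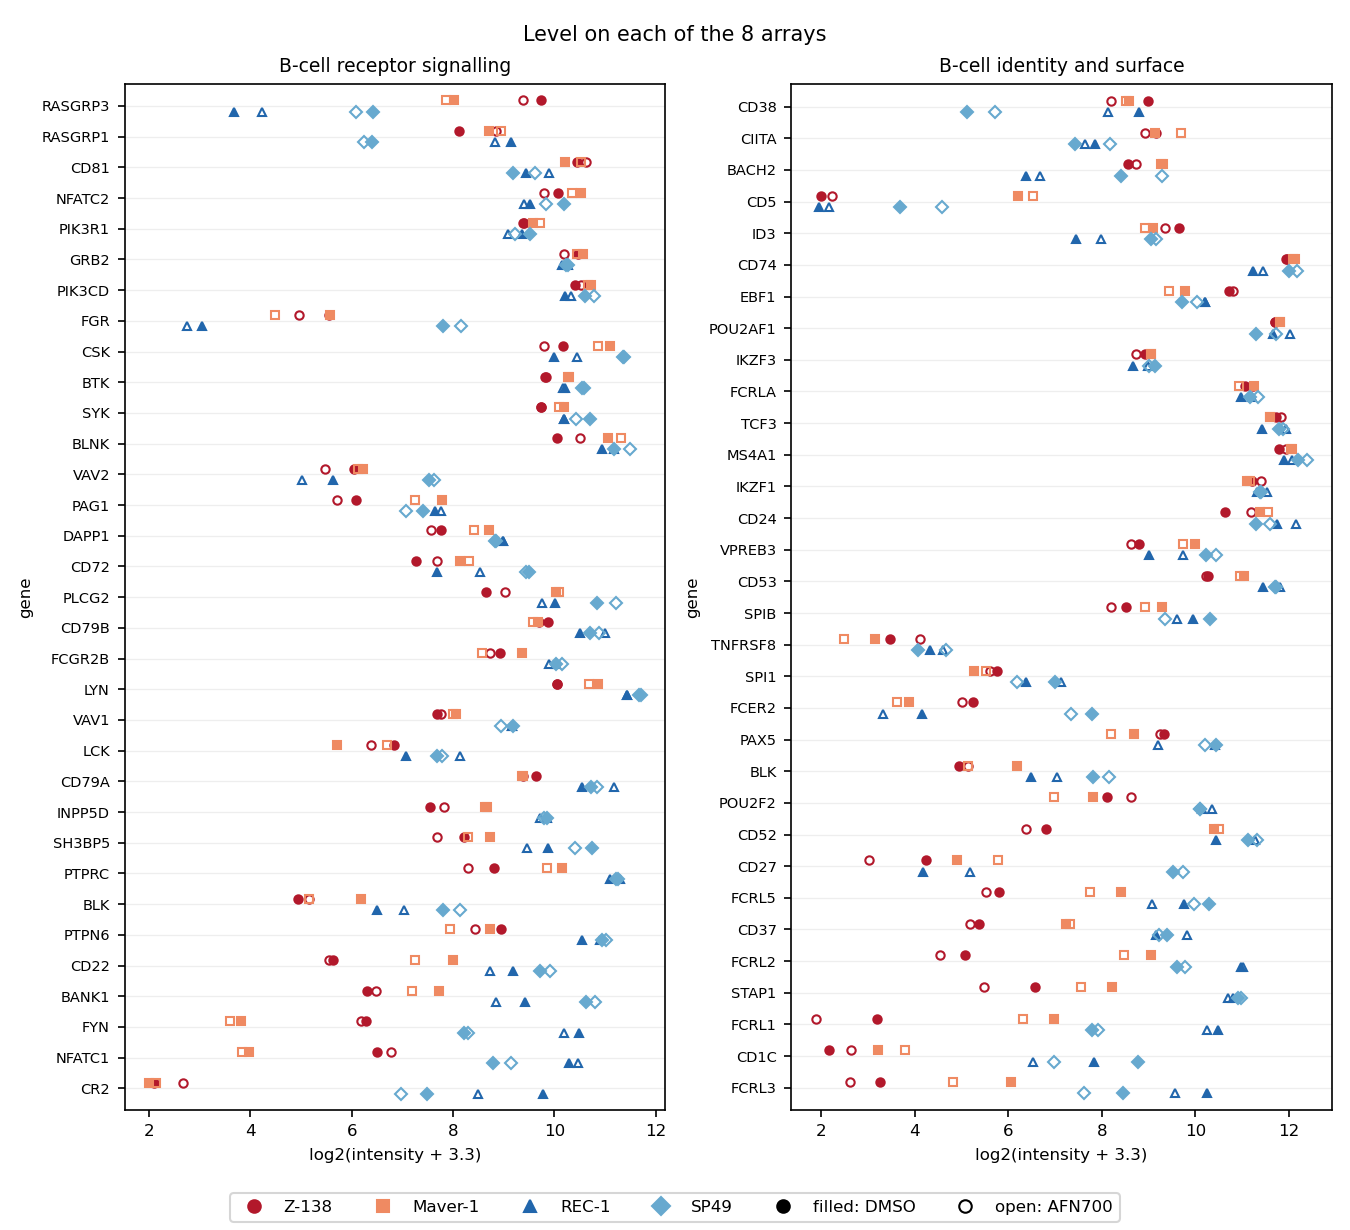
Each point is 1 array, on the log2(intensity + 3.3) axis, with filled symbols for DMSO and open symbols for AFN700; genes are ordered by their difference between the pairs. CR2, NFATC1 and FYN at the foot of the left panel show the blue points of REC-1 and SP49 well to the right of the red points of Z-138 and Maver-1, and SYK and BTK show them mixed.

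Surface and transcription factor genes of B-cell identity followed the same direction. Of 32 tested, 12 separated the pairs with higher values in REC-1 and SP49 (37.5%, against 7.96% of all genes). In Z-138 and Maver-1, 1 was higher (3.12%, against 8.04%). The list's median difference was -1.06. The Fc receptor-like genes, a family of B-cell surface proteins clustered on chromosome 1, gave 4 of the 12. FCRL3 read 6.3 and 2.8 (Z-138), 63.1 and 24.9 (Maver-1), 1206 and 758 (REC-1) and 349 and 192 (SP49), a difference of -4.79 ± 1.14. FCRL1 read 5.8 and 0.4 (Z-138), 123 and 76.3 (Maver-1), 1416 and 1210 (REC-1) and 219 and 237 (SP49), a difference of -4.51 ± 1.67. In this family Maver-1 stood between Z-138 and the other pair. CD1C, which presents lipid antigens, read 1.2 and 2.9 (Z-138), 6 and 10.6 (Maver-1), 225 and 89 (REC-1) and 432 and 122 (SP49), and STAP1, an adaptor bound by B-cell kinases, read 91.7 and 41.6 (Z-138), 295 and 184 (Maver-1), 1774 and 1651 (REC-1) and 1910 and 1993 (SP49). The former differed by -4.57 ± 0.67 and the latter by -3.88 ± 0.68.

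Among the transcription factors, POU2F2, the octamer-binding factor of B cells, read 275 and 391 (Z-138), 221 and 122 (Maver-1), 1120 and 1313 (REC-1) and 1086 and 1100 (SP49), a difference of -2.29 ± 0.42. SPI1, which encodes PU.1, read 51.2 and 45.8 (Z-138), 35.5 and 42.6 (Maver-1), 80.4 and 136 (REC-1) and 124 and 69.8 (SP49), and SPIB, its close relative, read 365 and 291 (Z-138), 625 and 483 (Maver-1), 988 and 777 (REC-1) and 1263 and 649 (SP49). These differed by -1.13 ± 0.51 and -1.07 ± 0.34, with the lowest SP49 array close above the highest array of the other pair. PAX5, the master factor of B-cell commitment, overlapped, at 636 and 601 (Z-138), 409.9 and 289 (Maver-1), 1374 and 589 (REC-1) and 1385 and 1184 (SP49). CD37, a tetraspanin of mature B cells, read 38.5 and 32.8 (Z-138), 148 and 156 (Maver-1), 572 and 899 (REC-1) and 671 and 594 (SP49), a difference of -3.12 ± 0.76. MS4A1, which encodes CD20, read 3525 and 3904 (Z-138), 4297 and 4241 (Maver-1), 3793 and 4304 (REC-1) and 4683 and 5372 (SP49) and differed by -0.18 ± 0.16, with the arrays of the pairs overlapping. Of the 11 B-cell markers, 5 separated the pairs with higher values in REC-1 and SP49 (45.5%, against 7.96% of all genes). CIITA, 1 of the 11 (9.09%, against 8.04% of all genes), did so with higher values in Z-138 and Maver-1. The other 5, EBF1 among them, did not separate the pairs. The summed intensity of the 11 was 15480 to 16154 on the arrays of Z-138 and Maver-1 and 16334 to 21365 on those of REC-1 and SP49. Most of that sum was MS4A1, CD74 and POU2AF1, which overlapped between the pairs.

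Plasma cell genes were higher in Z-138 and Maver-1. Of 15 tested, 8 separated the pairs in that direction (53.3%, against 8.04% of all genes) and 0 in the other, with a list median of 0.56. SDC1, which encodes the plasma cell surface proteoglycan syndecan-1, read 1810 and 1633 (Z-138), 348 and 436 (Maver-1), 7.9 and 8.9 (REC-1) and 37.6 and 73.7 (SP49), a difference of 5.00 ± 1.12. TNFRSF17, the BCMA receptor that sustains plasma cells, read 2995 and 2604 (Z-138), 1686 and 1686 (Maver-1), 51.8 and 36 (REC-1) and 381 and 338 (SP49), a difference of 4.07 ± 1.05. In both, Z-138 was highest and REC-1 lowest, and SP49 stood between REC-1 and Maver-1. JCHAIN, which joins secreted immunoglobulin M and A, read 3881 and 3175 (Z-138), 1846 and 1624 (Maver-1), 690.3 and 631 (REC-1) and 779 and 1042 (SP49), a difference of 1.67 ± 0.41.

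The regulators of the plasma cell programme separated by smaller amounts. PRDM1, the repressor that ends the mature B-cell programme, read 862 and 513 (Z-138), 304 and 317 (Maver-1), 189 and 224 (REC-1) and 161 and 166 (SP49), a difference of 1.29 ± 0.50. IRF4, which acts upstream of PRDM1, read 1180 and 1088 (Z-138), 851 and 747 (Maver-1), 622 and 504 (REC-1) and 485 and 182 (SP49), a difference of 1.21 ± 0.42. XBP1, the factor that expands the secretory apparatus, read 948 and 740.4 (Z-138), 1357 and 1427 (Maver-1), 410.3 and 453 (REC-1) and 516 and 595 (SP49), and CREB3L2, a related factor of the secretory pathway, read 1346 and 1199 (Z-138), 1042 and 1182 (Maver-1), 543 and 723 (REC-1) and 507 and 544 (SP49). They differed by 1.14 ± 0.35 and 1.04 ± 0.23; XBP1 was chosen after its values were seen. None of the 8 passed the test in limma (adjusted p 0.379 to 0.608). With the median over a gene's probe sets in place of the brightest, 5 of 14 separated the pairs.

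**Figure D3:**
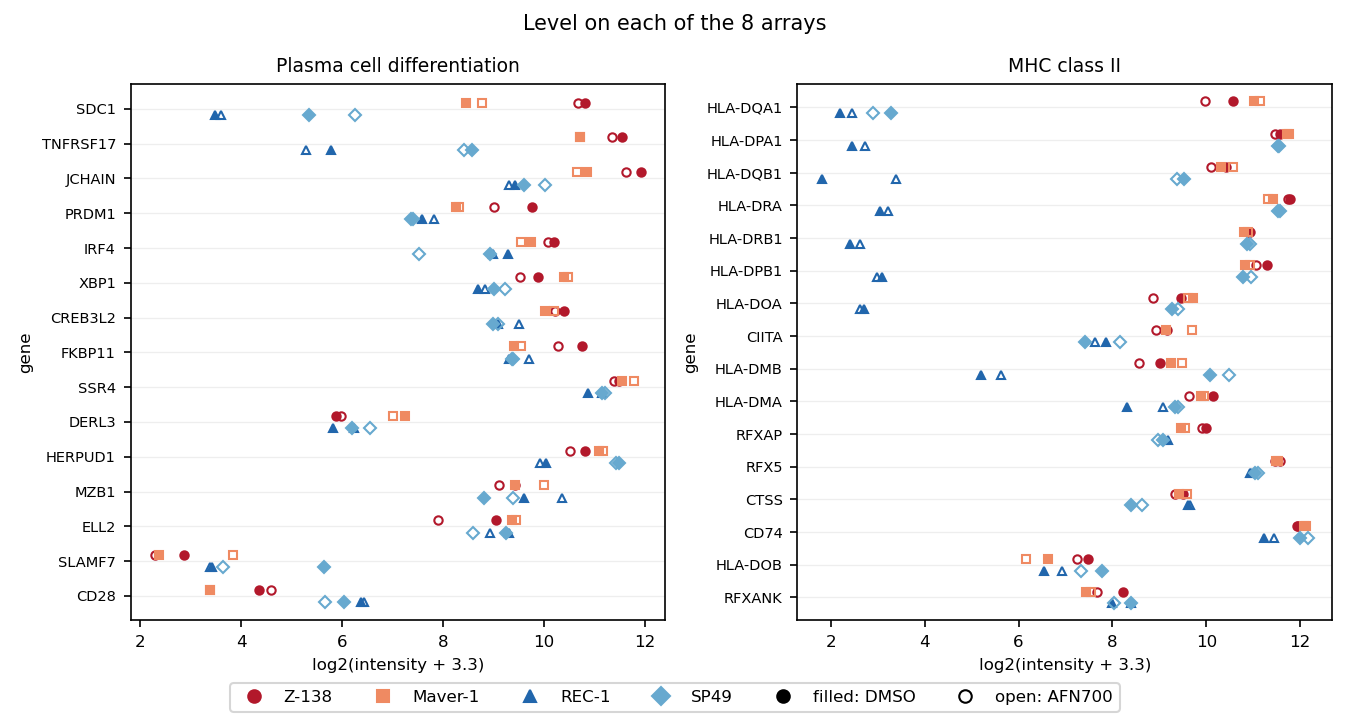
Each point is 1 array on the log2(intensity + 3.3) axis, filled for DMSO and open for AFN700. In the left panel SDC1 and TNFRSF17 place all red points of Z-138 and Maver-1 to the right of the blue points; in the right panel REC-1 alone lies at the left for HLA-DRA, HLA-DPA1 and HLA-DRB1, and REC-1 and SP49 both do for HLA-DQA1.

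MHC class II genes, whose products present peptides to helper T cells, were also higher in Z-138 and Maver-1, and for several of them REC-1 alone was low. Of 16 tested, 6 separated the pairs in that direction (37.5%, against 8.04% of all genes) and 0 in the other, with a list median of 1.35. HLA-DRA read 3517 and 3435 (Z-138), 2733 and 2560 (Maver-1), 5 and 6 (REC-1) and 3034 and 2948 (SP49), so REC-1 was near 0 while SP49 lay within the range of Z-138 and Maver-1. HLA-DPA1 showed the same pattern at 3022 and 2834 (Z-138), 3460 and 3373 (Maver-1), 2.2 and 3.3 (REC-1) and 2952 and 2989 (SP49), and so did HLA-DRB1 at 1946 and 1879 (Z-138), 1786 and 1886 (Maver-1), 2 and 2.9 (REC-1) and 1877 and 1940 (SP49). The differences between the pairs, 4.23 ± 2.81, 4.56 ± 2.99 and 4.16 ± 2.81, therefore carry large SE values. Without SP49, 13 of 16 members separated REC-1 from Z-138 and Maver-1 (81.2%, against 17.2% of all genes). HLA-DRA, HLA-DPA1 and HLA-DRB1 were chosen after their values were seen.

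HLA-DQA1 gave the largest difference of any gene high in Z-138 and Maver-1. It read 1505 and 1008 (Z-138), 2055 and 2264 (Maver-1), 1.3 and 2.2 (REC-1) and 6.4 and 4.2 (SP49), a difference of 7.96 ± 0.60 (adjusted p 0.285 in limma); with a pseudocount of 1 the difference was 8.63 and with 16 it was 6.41. Its probe sets disagreed in Maver-1. A second probe set of HLA-DQA1 read 654.1 to 1049 over the 4 arrays of Z-138 and Maver-1 and at most 4.3 in REC-1 and SP49. Another read 1520 and 1135 in Z-138 but 5.5 and 3.6 for Maver-1. HLA alleles differ in sequence, and whether that changes these readings was not tested. HLA-DQB1 read 1370 and 1099 (Z-138), 1270 and 1524 (Maver-1), 0.2 and 7.2 (REC-1) and 731 and 659 (SP49), and its probe sets likewise ranged from separation to overlap. CIITA, the master regulator of class II transcription, read 567 and 481 (Z-138), 559.9 and 826 (Maver-1), 228 and 196 (REC-1) and 169 and 284 (SP49), a difference of 1.46 ± 0.33. REC-1 and SP49 overlapped in CIITA although they were far apart in HLA-DRA. RFX5 and RFXAP, subunits of the factor that binds the X box of class II promoters, differed by 0.51 ± 0.13 and 0.64 ± 0.28.

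Class II promoters carry a Y box, bound by NF-Y. Stretches around an exact match to CTGATTGG or its reverse complement are shown for the separated members in which it was found before the start. These were HLA-DQB1, HLA-DMA and RFX5, of which RFX5 encodes a regulator and is not a class II gene. No such stretch was found for HLA-DQA1, CIITA and RFXAP. Sequences are from RefSeq (GRCh38.p14), read along the gene from 5' to 3' and within the window from 250 bases before to 50 after the start; capitals mark the match.
HLA-DQB1 promoter (chr6:32666711-32666778, minus strand): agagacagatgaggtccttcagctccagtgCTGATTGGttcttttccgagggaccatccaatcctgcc
HLA-DMA promoter (chr6:32953142-32953209, minus strand): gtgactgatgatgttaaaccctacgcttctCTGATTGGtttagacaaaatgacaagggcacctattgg
RFX5 promoter (chr1:151347392-151347459, minus strand): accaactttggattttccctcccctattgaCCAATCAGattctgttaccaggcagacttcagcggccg
The match was present in 4.16% of all promoters, 5.62% of those of the genes tested, 6.55% of those of the genes higher in Z-138 and Maver-1 and 5.28% of those of the genes higher in REC-1 and SP49. A match describes letters only and is not a measured site. HLA-DMA, which edits the peptides loaded on class II, read 1133 and 787 (Z-138), 949 and 993 (Maver-1), 316 and 538 (REC-1) and 642 and 676 (SP49), a difference of 0.87 ± 0.32.

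In the alternative NF-kB arm, NFKB2 and TNFRSF17 were higher in Z-138 and Maver-1, and BIRC2, LTB, TNFRSF13B, TNFRSF13C and TRAF3IP3 were higher in REC-1 and SP49. Of 15 members tested, 2 separated the pairs with higher values in Z-138 and Maver-1 (13.3%, against 8.04% of all genes). With higher values in REC-1 and SP49 there were 5 (33.3%, against 7.96% of all genes). The list's median difference was -1.07. NFKB2, the precursor processed in this arm, read 198 and 174 (Z-138), 298 and 311 (Maver-1), 101 and 98.2 (REC-1) and 112 and 97.5 (SP49), a difference of 1.20 ± 0.48. Its arrays lay at 174 or above in Z-138 and Maver-1 and at 112 or below in REC-1 and SP49. RELB, its partner, read 65.6 and 54.1 (Z-138), 56.1 and 64.1 (Maver-1), 53.2 and 27.6 (REC-1) and 51.6 and 24.2 (SP49); the pairs did not overlap, but its mean stayed below 100, and it differed by 0.65 ± 0.51. MAP3K14, the kinase of the arm, read 59.2 and 54 (Z-138), 95.1 and 95 (Maver-1), 27.9 and 46.1 (REC-1) and 57.4 and 64.1 (SP49) and overlapped, with a difference of 0.61 ± 0.61. TNFRSF17, described above, was the other gene higher in Z-138 and Maver-1.

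Of the members lower in Z-138 and Maver-1, TNFRSF13C, the BAFF receptor, read 24 and 26.4 (Z-138), 38.9 and 51.2 (Maver-1), 84.3 and 80.6 (REC-1) and 208 and 224 (SP49), a difference of -1.89 ± 0.72. TNFRSF13B, which encodes the related receptor TACI, read 152 and 134 (Z-138), 144 and 162 (Maver-1), 371 and 329 (REC-1) and 402 and 301 (SP49), a difference of -1.22 ± 0.36. LTB, a subunit of the lymphotoxin ligand, read 23 and 6.5 (Z-138), 87.6 and 95.3 (Maver-1), 391 and 188 (REC-1) and 468 and 194 (SP49), a difference of -2.89 ± 0.97, with Z-138 lowest and lower values on the AFN700 arrays of REC-1 and SP49. BIRC2, a ubiquitin ligase that helps to degrade MAP3K14, read 224 and 309.6 (Z-138), 355 and 427 (Maver-1), 816 and 792 (REC-1) and 513 and 625 (SP49), a difference of -1.07 ± 0.37. TRAF3IP3, a partner of TRAF3, read 68.2 and 37.5 (Z-138), 104 and 98.5 (Maver-1), 149 and 127 (REC-1) and 249.5 and 359 (SP49), a difference of -1.46 ± 0.66. CD40 read 86 and 69.2 (Z-138), 176 and 236 (Maver-1), 489 and 209.9 (REC-1) and 869 and 461 (SP49); Maver-1 overlapped REC-1 in this brightest of its probe sets, and the difference was -1.81 ± 0.66. The other 3 CD40 probe sets did separate the pairs, also with higher values in REC-1 and SP49; the means of these were 57.5 against 236.5, 50.9 against 171.2 and 29.3 against 85.9. The other members with a level tested, CHUK, LTA, TNFRSF11A, TNFSF13B and TRAF3, did not separate the pairs above the threshold, and with RELB, MAP3K14 and CD40 they ranged from -2.30 in TRAF3 to 0.65 in RELB.

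TRAF3, the adaptor that brings MAP3K14 to its ubiquitin ligase, was near 0 in Maver-1 alone. It read 374 and 421 (Z-138), 0.4 and 4.2 (Maver-1), 355 and 209 (REC-1) and 179.9 and 184 (SP49), and a second TRAF3 probe set read 5.4 and 3.4 for Maver-1, 246.2 and 142.1 for Z-138 and from 67 to 169.8 in the other pair. Z-138 was the highest of the 4 lines in the first probe set, so the lines of this pair stood at opposite ends. The difference between the pairs, -2.30 ± 2.14, became 0.82 without Maver-1. In the other 4 lines of the series TRAF3 read 156.0 to 410.4. DNA was not measured, and the cause of the low reading was not tested.

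**Figure D4:**
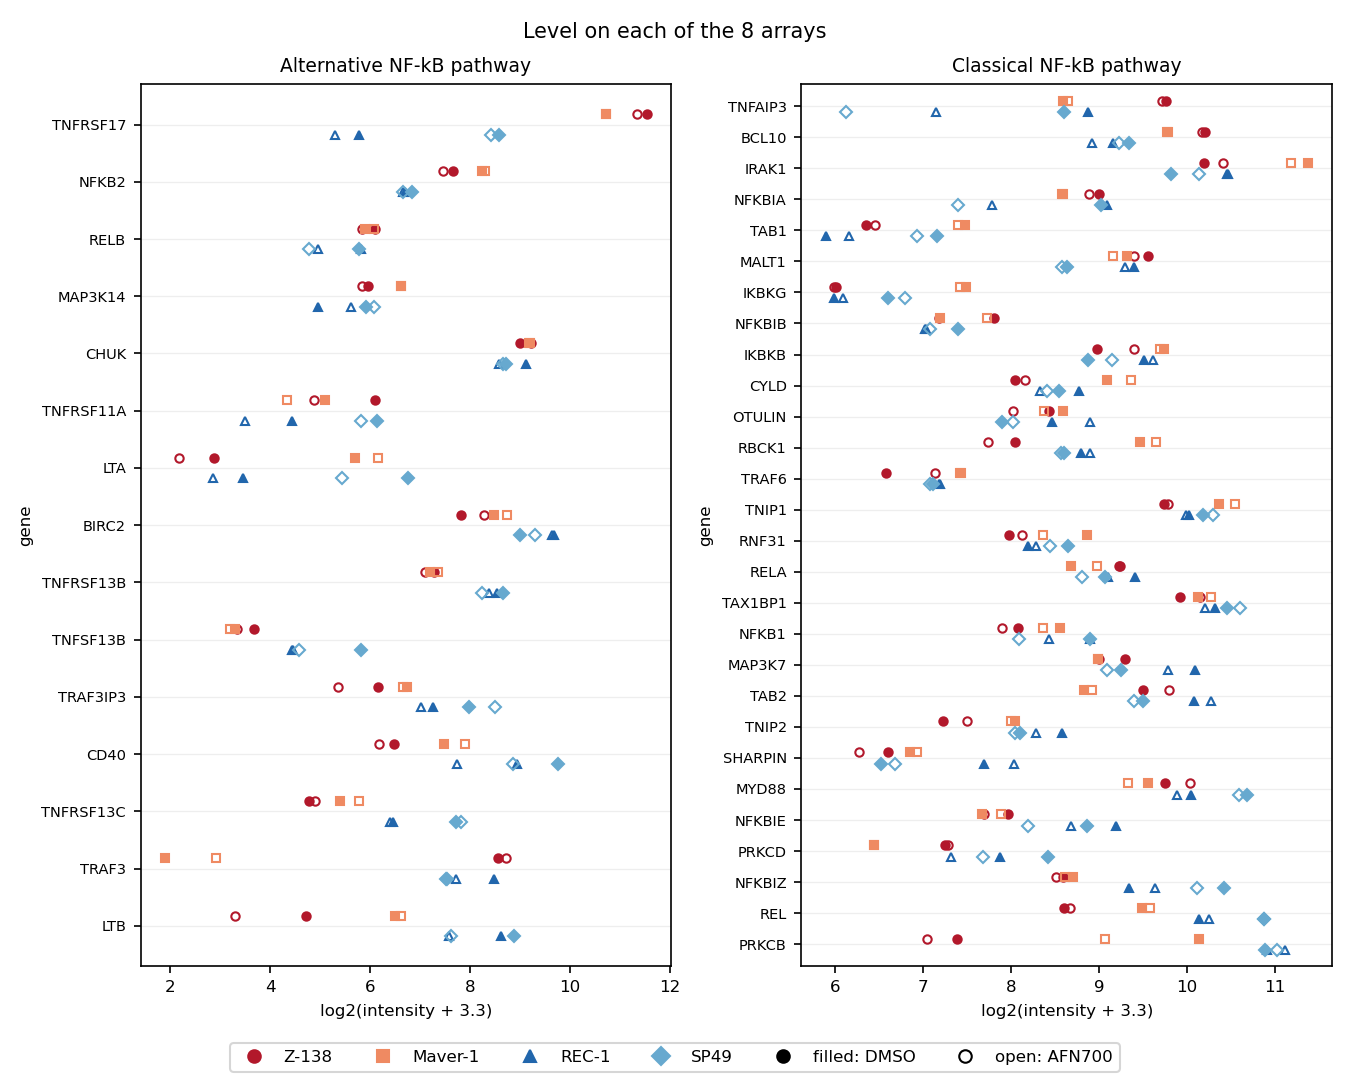
Each point is 1 array on the log2(intensity + 3.3) axis, filled for DMSO and open for AFN700, for the tested members of both NF-kB arms. NFKB2 shows the red points to the right of the blue, TRAF3 shows Maver-1 alone at the far left, and in the right panel REL, PRKCB and NFKBIZ at the foot show the blue points to the right.

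In the classical arm, the members that separated the pairs were mostly higher in REC-1 and SP49. Of 28 tested, 5 did so in that direction (17.9%, against 7.96% of all genes) and 1 in the other (3.57%, against 8.04%). The list's median difference was -0.04. REL, a subunit prominent in mature B cells, read 387 and 404 (Z-138), 714 and 762 (Maver-1), 1127 and 1214 (REC-1) and 1875 and 1873 (SP49), a difference of -1.45 ± 0.42. RELA read 597 and 603 (Z-138), 408 and 501 (Maver-1), 678 and 548 (REC-1) and 532 and 445 (SP49) and NFKB1 read 267 and 235 (Z-138), 373 and 326 (Maver-1), 475 and 343 (REC-1) and 472 and 269.5 (SP49); both overlapped, with differences of -0.07 ± 0.31 and -0.36 ± 0.35. NFKBIZ, an inducible nuclear member of the I-kappa-B family, read 384 and 362 (Z-138), 415 and 389 (Maver-1), 645 and 793 (REC-1) and 1373 and 1110 (SP49), and NFKBIE, a cytoplasmic one, read 246 and 204 (Z-138), 200.3 and 233 (Maver-1), 584 and 407 (REC-1) and 462 and 288 (SP49). They differed by -1.27 ± 0.36 and -0.93 ± 0.35. PRKCB, the kinase that links the B-cell receptor to BCL10 and MALT1, read 164 and 129 (Z-138), 1122 and 535 (Maver-1), 1919 and 2221 (REC-1) and 1894 and 2080 (SP49), a difference of -2.58 ± 0.82, with Z-138 the lowest line. BCL10, the adaptor that binds MALT1, was the 1 member higher in Z-138 and Maver-1, at 1181 and 1155 (Z-138), 871 and 882 (Maver-1), 569 and 483 (REC-1) and 645 and 597 (SP49), a difference of 0.82 ± 0.27. The count of 5 became 12 without Maver-1, 9 without SP49 and 8 without Z-138, when 17.6%, 16.3% and 14.6% of all genes separated in that direction. The other 22 members did not separate the pairs above the threshold in their brightest probe set. They ranged from -0.64 in MYD88 to 1.49 in TNFAIP3, and included CYLD, IKBKB, IKBKG, IRAK1, MALT1, MAP3K7, NFKBIB, OTULIN, RBCK1, RNF31, SHARPIN, TAB1, TAB2, TAX1BP1, TNIP1, TNIP2 and TRAF6. Further probe sets of TNIP2 and TAX1BP1 did separate the pairs, with higher values in REC-1 and SP49. Their means were 121.2 against 206.7 and 101.7 against 159.4 for TNIP2. For TAX1BP1 they were 588.2 against 764.1 and 334.2 against 539.6.

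More NF-kB target genes were higher in REC-1 and SP49 than in the other pair. Of 29 tested, 7 separated the pairs with higher values in REC-1 and SP49 (24.1%, against 7.96% of all genes). With higher values in Z-138 and Maver-1 there were 2 (6.90%, against 8.04%). The list's median difference was -0.75. BCL2A1, a survival protein of the BCL2 family, read 3.4 and 4.4 (Z-138), 17.4 and 8.7 (Maver-1), 624 and 361 (REC-1) and 3211 and 2024 (SP49), a difference of -6.70 ± 1.0. EBI3, a cytokine subunit, read 1.1 and 1.9 (Z-138), 1.7 and 1.6 (Maver-1), 279 and 51.7 (REC-1) and 218 and 31.5 (SP49), a difference of -4.43 ± 0.52, and SGPP2, a phosphatase of sphingosine phosphate, read 5.4 and 7.7 (Z-138), 0.3 and 0.8 (Maver-1), 169 and 42.8 (REC-1) and 490.4 and 166 (SP49), a difference of -4.71 ± 0.89. In both genes Z-138 and Maver-1 stayed near 0, and REC-1 and SP49 had their higher value on the DMSO array. CCL4, a chemokine induced by the B-cell receptor, read 279 and 53.4 (Z-138), 13.4 and 7 (Maver-1), 318 and 1512 (REC-1) and 1656 and 1247 (SP49), a difference of -4.62 ± 1.21. TNFAIP2 read 2.3 and 3.8 (Z-138), 6.7 and 9.5 (Maver-1), 361 and 182 (REC-1) and 146 and 50.3 (SP49), a difference of -4.17 ± 0.78. TNFAIP3, the deubiquitinase A20, read 865 and 837 (Z-138), 382 and 399 (Maver-1), 468 and 137.9 (REC-1) and 384 and 66.6 (SP49), and NFKBIA read 509.5 and 472 (Z-138), 379.6 and 383 (Maver-1), 544 and 218 (REC-1) and 517 and 165 (SP49); their differences were 1.49 ± 0.53 and 0.44 ± 0.33, and both overlapped. The count of 7 became 11 (37.9%) without Maver-1, when 17.6% of all genes separated in that direction.

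Promoter stretches are shown for the separated NF-kB genes that hold the letters GGGANTTTCC, an NF-kB motif in which N is any base, and for BCL2A1 and TNFAIP2, which hold the PU.1 motif GAGGAAGT. Both strands were searched in the same RefSeq window (GRCh38.p14), and capitals mark the match.
LTB promoter (chr6:31582472-31582541, minus strand): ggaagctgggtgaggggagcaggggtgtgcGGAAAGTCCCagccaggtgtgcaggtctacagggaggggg
REL promoter (chr2:60881498-60881567, plus strand): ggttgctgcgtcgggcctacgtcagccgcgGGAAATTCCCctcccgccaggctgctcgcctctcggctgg
NFKBIZ promoter (chr3:101827740-101827806, plus strand): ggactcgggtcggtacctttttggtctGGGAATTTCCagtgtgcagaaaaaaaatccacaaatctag
SGPP2 promoter (chr2:222423819-222423888, plus strand): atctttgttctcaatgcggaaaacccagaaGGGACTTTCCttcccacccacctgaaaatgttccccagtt
BCL2A1 promoter (chr15:79971338-79971405, minus strand): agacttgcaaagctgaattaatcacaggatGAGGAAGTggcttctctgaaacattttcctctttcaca
TNFAIP2 promoter (chr14:103123228-103123295, plus strand): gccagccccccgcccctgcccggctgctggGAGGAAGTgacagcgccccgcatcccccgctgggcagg
BANK1 promoter (chr4:101790631-101790698, plus strand): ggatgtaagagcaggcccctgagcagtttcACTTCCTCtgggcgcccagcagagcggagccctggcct
The NF-kB letters were present in 0.579% of all promoters, 0.677% of those of the genes tested, 0.879% (7 of 796) of those higher in REC-1 and SP49 and 0.468% (4 of 855) of those higher in Z-138 and Maver-1. The PU.1 letters were present in 2.54% of all promoters, 2.66% of those of the genes tested, 4.02% (32 of 796) of those higher in REC-1 and SP49 and 2.57% (22 of 855) of those higher in Z-138 and Maver-1. Members in the opposite direction held them too, RASGRP3 among them. The octamer ATTTGCAT was present in 1.80%, 1.37%, 2.01% and 1.40% of the same sets. BANK1 is shown as a B-cell receptor gene that carries the PU.1 letters on the opposite strand.

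Some other members of the BCL2 family went the other way from BCL2A1. BCL2 read 1802 and 1871 (Z-138), 2857 and 3438 (Maver-1), 1317 and 1376 (REC-1) and 885 and 1161 (SP49), a difference of 1.04 ± 0.33, and PMAIP1, which encodes the death promoter NOXA, read 2784 and 2455 (Z-138), 2409 and 1866 (Maver-1), 1349 and 1414 (REC-1) and 1753 and 1818 (SP49), a difference of 0.58 ± 0.21. A second bright PMAIP1 probe set overlapped. BCL2L1, which encodes BCL-XL, differed by 0.78 ± 0.51. Of 15 members tested, 3 were higher in Z-138 and Maver-1 without overlap (20.0%, against 8.04% of all genes). In REC-1 and SP49, 1 was higher (6.67%, against 7.96% of all genes). MCL1 overlapped, with a difference of 0.17 ± 0.29; it was chosen after its values were seen.

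Several toll-like receptors and sensors of foreign nucleic acid were higher in REC-1 and SP49. Of 17 tested, 7 separated the pairs in that direction (41.2%, against 7.96% of all genes). In the other, 1 did (5.88%, against 8.04%), and the list median was -1.09. AIM2, a cytosolic DNA sensor, read 2.5 and 2.4 (Z-138), 20.1 and 9.6 (Maver-1), 1607 and 1213 (REC-1) and 2074 and 2018 (SP49), a difference of -7.41 ± 0.71. TLR10 read 92.3 and 95.9 (Z-138), 163 and 71.4 (Maver-1), 807 and 790.4 (REC-1) and 897 and 656 (SP49), a difference of -2.92 ± 0.34. CD180, a toll-like receptor homologue of B cells, read 62.3 and 31.5 (Z-138), 228 and 212 (Maver-1), 685 and 691 (REC-1) and 1274 and 1072 (SP49), and LY86, its co-receptor MD-1, read 673 and 908 (Z-138), 979 and 970.4 (Maver-1), 2137 and 2803 (REC-1) and 2397 and 3044 (SP49). They differed by -3.12 ± 0.85 and -1.55 ± 0.20, and in both Z-138 had the lowest array. TLR9, the receptor for unmethylated DNA, read 34 and 30.5 (Z-138), 38.5 and 36.3 (Maver-1), 112 and 131 (REC-1) and 195 and 141 (SP49), a difference of -1.93 ± 0.52. STING1, the adaptor that relays cytosolic DNA sensing, was the gene of the list in the opposite direction, at 116 and 172 (Z-138), 76.1 and 102 (Maver-1), 0.9 and 3.8 (REC-1) and 3.4 and 11 (SP49), a difference of 3.97 ± 0.62. The RNA sensor IFIH1, counted below with the interferon-stimulated genes, also went that way, with a difference of 1.45 ± 0.41.

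Homing receptors and Notch pathway genes held further separated members. CXCR5, the receptor that guides B cells into follicles, read 13.2 and 16.6 (Z-138), 29 and 72.6 (Maver-1), 916 and 856 (REC-1) and 493 and 533 (SP49), a difference of -4.50 ± 0.70. CCR6, a chemokine receptor of mature B cells, read 10.3 and 25 (Z-138), 0.6 and 1.4 (Maver-1), 126 and 216 (REC-1) and 334 and 401 (SP49), a difference of -4.76 ± 0.97. Of 30 homing and adhesion genes tested, 5 were higher in REC-1 and SP49 (16.7%, against 7.96% of all genes). In Z-138 and Maver-1, 2 were higher (6.67%, against 8.04%), of which L1CAM, an adhesion protein, differed by 3.23 ± 0.67. The count of 5 became 10 (33.3%) without Maver-1 and 11 (36.7%) without REC-1, while the share of all genes went from 7.96% to 17.6% and 16.8%. NOTCH3 read 2.9 and 3.7 (Z-138), 3.2 and 2 (Maver-1), 267 and 203 (REC-1) and 549.8 and 517 (SP49), a difference of -5.84 ± 0.65. The Notch target HES1 read 43 and 71.7 (Z-138), 12.5 and 22.4 (Maver-1), 329 and 258 (REC-1) and 184 and 229 (SP49), and HEY1, another, read 6.8 and 6.8 (Z-138), 31 and 38.2 (Maver-1), 1940 and 1858 (REC-1) and 151 and 101 (SP49); REC-1 was the highest line in both. They differed by -2.85 ± 0.72 and -4.66 ± 1.52. In the opposite direction HEY2 differed by 1.58 ± 0.52, and LEF1, a Wnt pathway factor, read 2592 and 2709 (Z-138), 2927 and 2902 (Maver-1), 989 and 1043 (REC-1) and 1283 and 1555 (SP49), a difference of 1.21 ± 0.22. Of 23 genes tested in this list, 5 were higher in REC-1 and SP49 (21.7%, against 7.96% of all genes). In Z-138 and Maver-1, 3 were higher (13%, against 8.04%). The 5 became 8 (34.8%) without Z-138 or without REC-1, when 14.6% and 16.8% of all genes separated in that direction.

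The mantle cell lymphoma genes mostly overlapped between the pairs, with 1 of 29 higher in Z-138 and Maver-1 (3.45%) and 2 higher in REC-1 and SP49 (6.90%). SOX4, a transcription factor of early B cells, read 1860 and 1944 (Z-138), 1565 and 1411 (Maver-1), 667 and 741 (REC-1) and 356 and 315 (SP49), a difference of 1.78 ± 0.42. CCND1, the cyclin that the disease's translocation activates, read 2093 and 2171 (Z-138), 1019 and 1139 (Maver-1), 1752 and 1898 (REC-1) and 1827 and 1766 (SP49) and overlapped, as did SOX11, at 2336 and 3010 (Z-138), 959.6 and 1371 (Maver-1), 663 and 1063 (REC-1) and 1697 and 1922 (SP49); both were chosen after their values were seen. Cell cycle genes gave 3 of 33 higher in Z-138 and Maver-1 (9.09%) and 4 higher in REC-1 and SP49 (12.1%), shares near the background. BUB1, a checkpoint kinase of mitosis, read 2126 and 2413 (Z-138), 1482 and 1553 (Maver-1), 859.7 and 597 (REC-1) and 927 and 1093 (SP49), a difference of 1.12 ± 0.30, while MKI67, the proliferation marker, differed by -0.50 ± 0.23 and overlapped in another 2 bright probe sets. Oxidative phosphorylation gave 0 of 27 and 1 of 27 genes (3.70%) in these directions. Glycolysis and hypoxia gave 2 of 24 (8.33%) and 1 of 24 (4.17%), and oxidative stress genes 1 of 21 (4.76%) and 0 of 21. Of all genes, 8.04% and 7.96% separated in these directions. Chromatin regulators gave 5 of 30 in each direction (16.7%); those higher in REC-1 and SP49 became 2 of 28 with the median over a gene's probe sets and 8 to 11 without Z-138, Maver-1 or REC-1, and those higher in Z-138 and Maver-1 became 8 without Maver-1 and 10 without SP49. In those settings 14.6% to 17.6% of all genes separated in the first direction and 16.1% and 17.2% in the second.

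Interferon-stimulated genes had a median difference of -1.21, but only 3 of 30 separated the pairs with higher values in REC-1 and SP49 (10.0%). With higher values in Z-138 and Maver-1 there were 2 (6.67%). Both shares were near those of all genes, 7.96% and 8.04%. IFIT1, an antiviral protein that binds foreign RNA, read 0.9 and 0.4 (Z-138), 2.1 and 3.4 (Maver-1), 9.9 and 3.5 (REC-1) and 442 and 380.1 (SP49), so SP49 alone was high. IFI44L was likewise highest in SP49, at 3.2 and 2.4 (Z-138), 2.9 and 4.8 (Maver-1), 22.7 and 9.8 (REC-1) and 259.8 and 156 (SP49). IFIH1, the RNA sensor MDA5, was higher in Z-138 and Maver-1, at 346 and 447 (Z-138), 532 and 731 (Maver-1), 208 and 119.7 (REC-1) and 228 and 179 (SP49), a difference of 1.45 ± 0.41.

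Markers of other cell types also differed between the lines, and their part in the results was not tested. TRBC1, a T-cell receptor constant region, read 7.3 and 11.2 (Z-138), 1428 and 1374 (Maver-1), 1962 and 2358 (REC-1) and 1443 and 1495 (SP49), so that Z-138 alone was low. CD8A read 5 and 3.9 (Z-138), 3.5 and 4.5 (Maver-1), 83.5 and 74 (REC-1) and 180.4 and 115 (SP49), a difference of -3.87 ± 0.58, and CD28 read 17.1 and 20.9 (Z-138), 7.2 and 7.2 (Maver-1), 79.4 and 83.2 (REC-1) and 62.2 and 47.4 (SP49). CD3D and CD3E, chains of the T-cell receptor complex, read 141 and 164 and 89.1 and 147 in REC-1 and 12.1 or below in the other 3 lines. Other chains of that complex did not follow this. CD3G was highest in Z-138, at 106.1 and 91.6 (Z-138), 3.2 and 9.1 (Maver-1), 61.4 and 59 (REC-1) and 3.7 and 0.5 (SP49). CD247 read 43 to 119.6 over the 8 arrays, and the pairs overlapped. CD2, CD4, ZAP70, THEMIS and ICOS were at 17.7 or below on all 8 arrays. LCK, a kinase of the SRC family, read 112 and 79.9 (Z-138), 49.1 and 101 (Maver-1), 132 and 279.9 (REC-1) and 201 and 216 (SP49). The summed intensity of the 18 T-cell markers was 342.5 to 1640 in Z-138 and Maver-1 and 2046 to 3387 in REC-1 and SP49, and without TRBC1 it was 156.4 to 372.0 and 603.8 to 1028. COL1A1, a collagen chain, read 409 and 310.0 (Z-138), 153 and 172 (Maver-1), 6.3 and 1.3 (REC-1) and 34.2 and 16.4 (SP49), a difference of 4.18 ± 0.93, while COL1A2, COL3A1, DCN and LUM were at 17.2 or below on all 8 arrays; the 12 stromal markers summed to 1751 to 2503 and 516.8 to 1779. Most of that sum was VIM, which lymphoid cells also express, and without it the sums were 294.1 to 512.1 and 87.6 to 273.5. The myeloid markers summed to 130.4 to 195.0 and 188.5 to 219.9, the natural killer cell markers to 97.1 to 424.7 and 41.6 to 849.0, and the epithelial markers to 80.1 to 526.4 and 121.6 to 176.2.

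Among the 15 separated genes with the largest difference and higher values in REC-1 and SP49, GTSF1, a germline factor of the piRNA pathway, read 1 and 0.3 (Z-138), 3.3 and 8.3 (Maver-1), 2398 and 2985 (REC-1) and 1369 and 1438 (SP49), a difference of -8.37 ± 0.68. KCNJ16, a potassium channel subunit, read 5.2 and 2 (Z-138), 6.3 and 2.9 (Maver-1), 1852 and 2783 (REC-1) and 475 and 710.3 (SP49), and ETV1, a transcription factor of the ETS family, read 0.2 and 0.5 (Z-138), 1.6 and 0.2 (Maver-1), 1510 and 1418 (REC-1) and 235 and 203 (SP49). They differed by -7.32 ± 0.81 and -7.20 ± 1.04, with REC-1 the higher line of its pair in both. PLPP3, a lipid phosphate phosphatase, read 1 and 1.2 (Z-138), 0.2 and 0.8 (Maver-1), 613 and 652 (REC-1) and 502 and 376 (SP49), a difference of -7.01 ± 0.55. CHI3L2, a chitinase-like protein, and LAPTM4B, a lysosomal membrane protein, differed by -6.69 ± 0.77 and -6.60 ± 0.98. The lines of a pair could differ widely, as PCDH10, a protocadherin, shows at 0.5 and 0.4 (Z-138), 0.2 and 0.6 (Maver-1), 849 and 825 (REC-1) and 89.1 and 60.7 (SP49).

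In the other direction, IGLL1, a surrogate light chain of the pre-B-cell receptor, read 1715 and 1830 (Z-138), 732 and 1078 (Maver-1), 3 and 6.8 (REC-1) and 1.8 and 2.3 (SP49), a difference of 7.59 ± 0.61. IGLL1 resembles the immunoglobulin lambda genes, and its reading is uncertain to that extent. CUX2, a homeobox factor, read 2337 and 2461 (Z-138), 918 and 796 (Maver-1), 4.1 and 0.2 (REC-1) and 26.8 and 25.9 (SP49), and SCN3A, a sodium channel, read 616 and 890.3 (Z-138), 686 and 544 (Maver-1), 5.5 and 3.2 (REC-1) and 1.1 and 4.6 (SP49). They differed by 6.87 ± 1.07 and 6.66 ± 0.52. WNT16, a secreted Wnt ligand, read 1111 and 1134 (Z-138), 449.6 and 482 (Maver-1), 15.2 and 21 (REC-1) and 4 and 1.3 (SP49), a difference of 6.03 ± 0.89. SMAD1, a transcription factor of BMP signalling, read 302 and 335 (Z-138), 1896 and 1672 (Maver-1), 0.8 and 1 (REC-1) and 46.3 and 113 (SP49), a difference of 5.41 ± 1.68, with Maver-1 the higher line. UNC13C, a synaptic vesicle protein, read 1930 and 1884 (Z-138), 42.6 and 40.1 (Maver-1), 1.1 and 0.8 (REC-1) and 1.4 and 1.1 (SP49), where Z-138 stood far above Maver-1. RBFOX2, a splicing factor, differed by 5.09 ± 0.91 and H3C3, a histone H3 gene with near-identical copies, by 5.21 ± 0.62. The size of such differences depends on the pseudocount: that of GTSF1 was -9.25 with 1 and -6.69 with 16 in place of 3.3. Among 1173 further bright probe sets of 758 of the separated genes, 1086 had the same direction and 87 the opposite, and 677 also separated the pairs.

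The other 4 lines of the series did not fall on one side. Their arrays entered the choice of probe sets and the filter for genes tested, but not the separation rule. Of the 989 genes higher in Z-138 and Maver-1, the line mean was nearer that pair in 39.1% for JVM-13, 50.8% for HBL-2, 41.6% for JVM-2 and 51.6% for GRANTA-519. Of the 979 genes higher in REC-1 and SP49, it was nearer that pair in 41.5%, 47.8%, 53.8% and 48.7%, in the same order. The JVM-13 DMSO array had a median intensity of 148.7 over the genes tested, against 221.9 to 256.7 on the other arrays of these 4 lines. The 3' to 5' actin ratio was 16.7 on the HBL-2 AFN700 array and 1.90 to 3.43 on the others. The part of both in these shares was not tested. All 7 separated NF-kB target genes were nearer REC-1 and SP49 in GRANTA-519, as were 6 of 7 in JVM-2 and JVM-13 and 2 of 7 in HBL-2. BCL2A1, for example, read 2569 and 1325 in GRANTA-519, 3065 and 2689 in JVM-2, 3837 and 3056 in JVM-13 and 175 and 114 in HBL-2. Plasma cell genes were more often on the other side in GRANTA-519, JVM-2 and JVM-13, with 6 of 8 nearer Z-138 and Maver-1 in GRANTA-519, 7 of 8 in JVM-2, 6 of 8 in JVM-13 and 3 of 8 in HBL-2. SDC1 read 1838 and 1536 in GRANTA-519, 1465 and 1674 in JVM-2, 885 and 947 in JVM-13 and 194 and 116 in HBL-2. Of the 17 B-cell receptor genes, 11 were nearer REC-1 and SP49 in JVM-2 (64.7%), 9 in HBL-2 (52.9%), 7 in JVM-13 (41.2%) and 8 in GRANTA-519 (47.1%), mostly near the shares of all 979 genes. All 4 of these lines are labelled insensitive, like Z-138 and Maver-1. The agent on the JVM-13 AFN700 array is spelled AFN701 in one of its labels.

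Separated genes were unevenly spread over the chromosomes. On chromosome 18, 20.8% of 178 genes tested were higher in Z-138 and Maver-1 and 5.06% higher in REC-1 and SP49, and on chromosome 16 the shares were 15.6% and 4.26% of 564. The order was turned on chromosome 3, with 3.86% and 15.3% of 674, on chromosome 11, with 3.87% and 12.2% of 698, and on chromosome 8, with 2.09% and 10.7% of 431. The genes of chromosome 15 had a median deviation from the mean of the 4 lines of 0.36 in Maver-1 and -0.40 in REC-1, those of chromosome 13 of 0.34 in Z-138 and -0.43 in REC-1, and those of chromosome 22 of -0.56 in REC-1. For 179 of 986 genes higher in Z-138 and Maver-1 the next gene tested along the chromosome was also higher there (18.2%, against 8.04% of all genes), and for 144 of 978 in the other direction (14.7%, against 7.96%). The longest runs held 5 genes: ZNF532, SEC11C, LMAN1, PMAIP1 and PIGN on chromosome 18 and KREMEN2, PAQR4, PKMYT1, HCFC1R1 and THOC6 on chromosome 16 in the first direction, and TMEM230, PCNA, CDS2, GPCPD1 and SHLD1 on chromosome 20 in the second. IFITM1, IFITM2 and IFITM3, near-identical interferon-induced genes that probes may not tell apart, formed a run of 4 with SIGIRR on chromosome 11. DNA copy number was not measured.

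**Figure D5:**
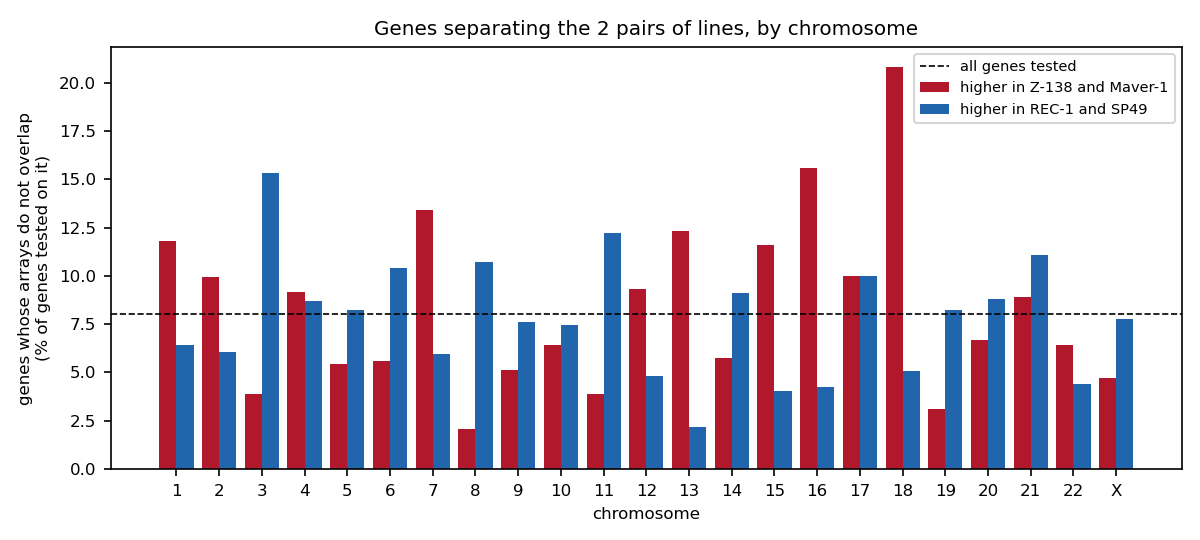
The bars give, for each chromosome, the percent of its tested genes that separate the pairs, red for higher in Z-138 and Maver-1 and blue for higher in REC-1 and SP49; the dashed line marks the 8.04% of all genes. Red exceeds blue most on chromosomes 18 and 16, and blue exceeds red most on chromosomes 3, 8 and 11.

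The response to AFN700, the AFN700 minus the DMSO value of a line, was compared between the same pairs, and it rests on the same 8 arrays. Limma called 0 of 12305 genes (lowest adjusted p 0.932), and 632 genes (5.14%) had an unadjusted p under 0.05, close to the 5% that chance gives. SGPP2 responses were 0.34 and 0.19 in Z-138 and Maver-1 and -1.90 and -1.55 in REC-1 and SP49, a difference of 1.99 ± 0.43. CD1C responses were 0.46 and 0.58 in Z-138 and Maver-1 and -1.30 and -1.80 in REC-1 and SP49, a difference of 2.07 ± 0.33. TNFAIP2 responses were 0.34 and 0.36 in Z-138 and Maver-1 and -0.98 and -1.48 in REC-1 and SP49, and CCL22, a chemokine of dendritic and B cells, responded by -0.07 and 0.66 in Z-138 and Maver-1 and -1.92 and -1.44 in REC-1 and SP49. CCL22 read 2.6 and 2.3 (Z-138), 9.4 and 16.7 (Maver-1), 25.9 and 4.4 (REC-1) and 1489 and 548 (SP49). In these 4 genes REC-1 and SP49 were lower with AFN700. Z-138 and Maver-1 read 16.7 or below on all their arrays, so that a lower value could not be seen there, and the sign of their response cannot be read. NFKBIA, which starts from like levels, responded by -0.11 and 0.01 in Z-138 and Maver-1 and -1.31 and -1.63 in REC-1 and SP49, a difference of 1.42 ± 0.45; it read 544 and 218 in REC-1 but 510 and 472 in Z-138. NFKB2 responses were -0.19 and 0.06 in Z-138 and Maver-1 and -0.03 and -0.19 in REC-1 and SP49, so that the level difference of the alternative arm's factor was there on both treatments. The opposite order held for PDE4D, a cyclic AMP phosphodiesterase, with -0.75 and -1.13 in Z-138 and Maver-1 and 0.47 and 1.40 in REC-1 and SP49 and a difference of -1.87 ± 0.35; it read 11.5 and 5.5 (Z-138), 8.7 and 2.2 (Maver-1), 46.9 and 66.1 (REC-1) and 111 and 297 (SP49), so Z-138 and Maver-1 were near 0.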

How the data were processed

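RNA of 16 cultures was measured on Affymetrix HG-U133 Plus 2 arrays, 8 of which are compared here. The deposited values are linear intensities that the authors made with MAS5, per the submitters' processing notes; a version is not given in the sources used here. All 16 arrays have a trimmed mean of 150.0. The table holds no detection calls, so folds against values of a few units depend on the pseudocount. Precision is limited by the number of arrays. Of 54675 probe sets, 41091 name 1 gene, 1801 several and 11721 none in the platform annotation used. The brightest probe set stood for a gene. Genes above the 60th percentile of an array on at least 2 of the 16 were tested (12305 of 19775). Values were log2(intensity + 3.3), where 3.3 is the 25th percentile, and fold changes are on that scale, which understates low genes.

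Line means were compared with limma 3.58.1 in R 4.3.3 (lmFit and eBayes with trend, 2 residual degrees of freedom, Benjamini-Hochberg adjustment). Genes were named by a rule: the 15 largest separated genes per direction, up to 5 separated members per list, all measured members of both NF-kB arms, the genes nearest the threshold of 100, and 5 genes per direction for the response. CD81, CREB3L2, INPP5D, LEF1, LY86, MS4A1, PAX5, PTPN6, RFX5 and the genes in chromosomal runs fall outside it and were chosen after their values were seen. Of 659 genes in 30 lists, 611 had a probe set. Members and lists were chosen with earlier results of these data known. The fit was tested on simulated data: of 50 genes each it called 0 at a log2 difference of 2, 20 at 4, 29 at 6 and 35 at 8, and 2 of 12105 unchanged genes. The simulated spread was normal and shuffled over genes, so any link of spread to level was not kept. These shares therefore do not carry over to the real genes. Of the separated genes, 7 and 13 differed by 6 or more in the 2 directions, and limma called 0. Alternatives changed the pseudocount, normalization, filter, probe set rule, arrays, lines and fit.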

Additional observations from a re-analysis of the deposited data

Results flagged for a closer look

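Of the 5 genes per direction named for the AFN700 response, 9 had opposite signs in the pairs. Both lines of one pair had a positive response and both lines of the other a negative one. Genes outside these 9 showed the pattern too. IFIH1 responded by 0.37 and 0.46 in Z-138 and Maver-1 and -0.78 and -0.34 in REC-1 and SP49. KCNJ16 responded by -0.68 and -0.63 in Z-138 and Maver-1 and 0.59 and 0.58 in REC-1 and SP49. The share of all genes with this pattern was not counted. The differences below are the response of Z-138 and Maver-1 minus that of REC-1 and SP49, on the log2 scale. Limma's test of the difference did not pass for any of the 9 (adjusted p 0.932 for each), and they were picked by size among genes at an unadjusted p under 0.01. A choice by the size of the difference favours opposite signs, so the count of 9 is no evidence of a difference. In several of them the sign in a line rests on readings near 0. SGPP2, CD1C and TNFAIP2 read 10.6 or below and PDE4D 11.5 or below on all 4 arrays of Z-138 and Maver-1, and CDHR3 read 8.9 and 9.6 in REC-1. Intensities are given with the DMSO array first.

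CD1C, which presents lipid antigens, differed by 2.07, with responses of 0.46 and 0.58 in Z-138 and Maver-1 and -1.30 and -1.80 in REC-1 and SP49. It read 1.2 and 2.9 (Z-138), 6 and 10.6 (Maver-1), 225 and 89 (REC-1) and 432 and 122 (SP49). SGPP2, a phosphatase of sphingosine phosphate, differed by 1.99, with responses of 0.34 and 0.19 in Z-138 and Maver-1 and -1.90 and -1.55 in REC-1 and SP49. It read 5.4 and 7.7 (Z-138), 0.3 and 0.8 (Maver-1), 169 and 42.8 (REC-1) and 490.4 and 166 (SP49). TNFAIP2, a gene induced by TNF, differed by 1.58, with responses of 0.34 and 0.36 in Z-138 and Maver-1 and -0.98 and -1.48 in REC-1 and SP49. It read 2.3 and 3.8 (Z-138), 6.7 and 9.5 (Maver-1), 361 and 182 (REC-1) and 146 and 50.3 (SP49). ANKRD33B, an ankyrin repeat protein, differed by 1.41, with responses of 0.16 and 0.59 in Z-138 and Maver-1 and -1.45 and -0.62 in REC-1 and SP49. It read 58.2 and 65.6 (Z-138), 128 and 194 (Maver-1), 93.6 and 32.1 (REC-1) and 121 and 77.7 (SP49). CRACR2B, a regulator of calcium channels, differed by -1.98, with responses of -0.07 and -1.69 in Z-138 and Maver-1 and 1.01 and 1.18 in REC-1 and SP49. It read 26.9 and 25.4 (Z-138), 83.9 and 23.7 (Maver-1), 73.1 and 150.3 (REC-1) and 32.6 and 78.1 (SP49). PDE4D, a cyclic AMP phosphodiesterase, differed by -1.87, with responses of -0.75 and -1.13 in Z-138 and Maver-1 and 0.47 and 1.40 in REC-1 and SP49. It read 11.5 and 5.5 (Z-138), 8.7 and 2.2 (Maver-1), 46.9 and 66.1 (REC-1) and 111 and 297 (SP49). CDHR3, a cadherin-related protein, differed by -1.72, with responses of -0.68 and -1.50 in Z-138 and Maver-1 and 0.08 and 1.18 in REC-1 and SP49. It read 39.8 and 23.7 (Z-138), 76.5 and 24.9 (Maver-1), 8.9 and 9.6 (REC-1) and 91.4 and 211 (SP49). CARMIL1, an actin regulator, differed by -1.70, with responses of -1.62 and -0.77 in Z-138 and Maver-1 and 0.83 and 0.17 in REC-1 and SP49. It read 34.2 and 8.9 (Z-138), 31.4 and 17 (Maver-1), 110.2 and 198 (REC-1) and 206 and 233 (SP49). VMP1, a membrane protein of autophagy, differed by -1.40, with responses of -0.84 and -1.17 in Z-138 and Maver-1 and 0.71 and 0.08 in REC-1 and SP49. It read 79.2 and 42.9 (Z-138), 62.7 and 26.1 (Maver-1), 115 and 190.4 (REC-1) and 87.1 and 92.4 (SP49).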

How the results depend on the processing

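No gene passed limma's test at an adjusted p under 0.05 in the line comparison or in the AFN700 response difference under any alternative run, except that 156 passed in the line comparison with 8 arrays and a random line block and 1 with all 8 lines in 1 fit. That block treats the DMSO and AFN700 arrays of a line as partly independent. The count of separated genes was 989 higher in Z-138 and Maver-1 and 979 higher in REC-1 and SP49. Fewer arrays made separation easier: these counts were 1789 and 1733 on DMSO arrays only and 1802 and 1750 on AFN700 arrays only. Leaving out 1 line in turn gave 1954 to 2153 and 1792 to 2161. Quantile normalization gave 989 and 979, and centring each array on its median 1042 and 910. The comparison between the pairs was unpaired, because they consist of different lines. The AFN700 response was taken within each line.

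The sign of the difference changed for the genes that follow, and the cause was not tested. With the median over a gene's probe sets the difference was 0.045 for ATP5PO, -0.23 for CYLD, -0.28 for IKBKB, -0.52 for OTULIN and -0.06 for TAP2. On DMSO arrays only it was -0.093 for CYLD, -0.27 for NFKBIA, 0.003 for RNF31 and -0.14 for TRAF6. On AFN700 arrays only it was 0.026 for LTA, -0.26 for OTULIN, -0.037 for RBCK1, 0.15 for RELA, -0.052 for TNFRSF11A and 0.025 for TNIP1. With each array centred on its median it was 0.015 for TNIP1. Leaving out 1 line in turn gave -0.41 to 0.71 for CYLD, -0.11 to 0.44 for IKBKB, -0.37 to 1.09 for IKBKG, -2.11 to 1.30 for LTA, -0.33 to 0.40 for OTULIN, -0.82 to 0.84 for RBCK1 and -0.27 to 0.14 for RELA. It gave -0.34 to 0.22 for RNF31, -1.20 to 0.061 for SHARPIN, -0.14 to 0.90 for TAB1, -0.88 to 1.14 for TNFRSF11A, -0.36 to 0.33 for TNIP1, -5.42 to 0.82 for TRAF3 and -0.28 to 0.28 for TRAF6. Of the other settings for the line differences of named genes, 2841 kept the direction and the side of the threshold and 43 passed it.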
